A study of Rattus norvegicus with 6 samples.

Results

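Txnip, the thioredoxin-interacting protein, was followed here in cultured synovial cells of arthritic rats together with 8 genes of its family and of glucose uptake. Members were chosen by gene symbol, taking the most abundant transcript row of each. The 9 symbols were Txnip, Arrdc4, Arrdc3, Arrdc2, Slc2a1, Slc2a3, Hk1, Hk2 and Mlxip, and 7 of them were found, each as 1 row, among 17221 transcript rows of 16499 symbols. No row had the symbol Hk1 or Mlxip, so both were not analysed here. The list was put together with the difference of Txnip between the 2 rat sera already known, and that difference is therefore given as a description with no test.

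The cells were fibroblast-like synovial cells of female Wistar rats with collagen-induced arthritis, taken before any therapy. Cells of 2 rats were each cultured with 3 sera, which gave 6 RNA-seq libraries, 2 a group. FBS was fetal bovine serum, the standard medium. AP- was serum of rats without treatment, and AP+ was serum of rats after 18 days of acupuncture, the needle stimulation under test (the study calls them MS− and MS+). What all 3 groups shared was the arthritic donor of the cells and the time of sampling before therapy. The AP- serum is described as that of untreated arthritic rats and as drawn before any therapy, and 1 label field speaks of healthy rats, while the number of animals behind each rat serum is not stated, so that the replicate is the rat that gave the cells. FBS differs from the rat sera in species as well as in everything else about a commercial serum, and these cannot be told apart. AP+ against AP- set serum of stimulated donors beside serum of donors without stimulation; the day of blood sampling, and with it the stage or presence of arthritis in the donors, may differ as well, and these cannot be told apart from stimulation. Each rat serum was also set against FBS, the standard medium.

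Txnip is an alpha-arrestin, one of the adaptor proteins that bind membrane proteins and ubiquitin ligases. It binds thioredoxin, and with its relative Arrdc4 it lowers glucose uptake, in part by promoting endocytosis of the glucose transporters. The genes of both are classical targets of the glucose sensor MondoA, encoded by Mlxip, which acts with its partner Mlx at carbohydrate response elements built from E-boxes, so that Txnip mRNA rises with glucose 6-phosphate and falls when glucose is used up. Slc2a1 and Slc2a3 encode the transporters GLUT1 and GLUT3, and Hk1 and Hk2 the hexokinases that trap glucose in the cell as glucose 6-phosphate. Synovial fibroblasts of inflamed joints are known for high glucose use.

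Values are in CPM, reads brought to a common library size and scaled by the trimmed mean of M-values (TMM), and libraries held 5463316 to 5991889 reads, so that 1 read was worth 0.164 to 0.184 CPM and a count of 3 reads 0.491 to 0.551 CPM. No library differed from its replicate by less than sampling noise (chi-square per degree of freedom 13.7 to 15.4). Of 11 fibroblast markers, 9 reached a mean of 1 CPM, with Col1a1 at 29364 CPM, while Dcn held 7 reads and Lum 17 reads in all 6 libraries and Prg4 a mean of 1.94 CPM. The pan-leukocyte marker Ptprc was at 0 reads, and of 7 macrophage markers only Cd14 reached 1 CPM. Of 5 skeletal muscle markers 3 reached a mean of 1 CPM. The muscle actin Acta1 had 991 CPM, Myh4 9.35 CPM and Tnnt3 6.88 CPM, while Ckm had 0.358 CPM and Mb 0.0300 CPM. Of 2 chondrocyte markers found, Acan, a cartilage proteoglycan, had a mean of 2348 CPM and Col2a1 one of 0.262 CPM. Of 8 tested proliferation genes, 7 were lower with either rat serum than with FBS by limma's adjusted p, with a median difference of -1.26 for AP+ and -2.34 for AP- in log2(CPM + 1). Their median was 1.05 higher with AP+ than with AP-, where limma and edgeR called 0 of the 8, although 7 had an unadjusted p under 0.05 and limma with the rat as a block called 6. The part of this shift in the results on the uptake genes was not tested, and in whole cultures fewer cells of a kind and less RNA per cell cannot be told apart.

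Txnip (NM_001008767, rn4 chr2:191356954-191360754, plus strand) was highest with AP- serum, intermediate with FBS and lowest with AP+ serum. In FBS it stood at 179 CPM in the cells of rat 1 and 166 CPM in those of rat 2. With AP- it stood at 259 and 321 CPM, and with AP+ at 99.6 and 106 CPM. No 2 of the 3 groups overlapped, and the rats held the same order of sera. Each value rests on 553 to 1776 reads. The group means were 173 ± 9.51 CPM in FBS, 290.1 ± 43.7 CPM in AP- and 103 ± 4.17 CPM in AP+ (SD, n = 2 each).

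Between the 2 rat sera, the mean of Txnip was 2.83 times as high with AP- as with AP+. On the log2(CPM + 1) scale AP+ was below AP- by a difference of -1.48 (SE 0.12), or -1.37 within rat 1 and -1.60 within rat 2. Of the 9820 rows tested, 0.0407% had a larger fall. This rank is a description and no support, since the gene was chosen with the difference already known. That contrast helped to choose the gene, hence no p is given. Its libraries also enter the comparisons with FBS, so the p-values of Txnip there are not independent of that choice.

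Set against FBS, Txnip rose with AP- and fell with AP+ by about the same step. With AP- the log2 difference from FBS was 0.74 (SE 0.12, limma adjusted p = 0.0235), with 0.53 in rat 1 and 0.95 in rat 2. With AP+ it was -0.74 (SE 0.12, limma adjusted p = 0.0169), with -0.84 in rat 1 and -0.65 in rat 2. With the rat as a block in the fit, the adjusted p was 5.62e-05 for AP- and 4.14e-05 for AP+ by limma. Leaving out 1 library at a time kept the direction of both but often ended the call. For AP+ against FBS, limma's adjusted p was 0.0951 without FBS of rat 1, 0.0582 without FBS of rat 2, 0.110 without AP+ of rat 1 and 0.0750 without AP+ of rat 2. For AP- against FBS it was 0.0998 and 0.0943 without FBS of rat 1 and of rat 2, 0.118 without AP- of rat 2, and 0.0569 and 0.0559 without AP+ of rat 1 and of rat 2. In the same comparisons 6.18% of all rows fell further with AP+ and 2.95% rose further with AP-.

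**Figure D1:**
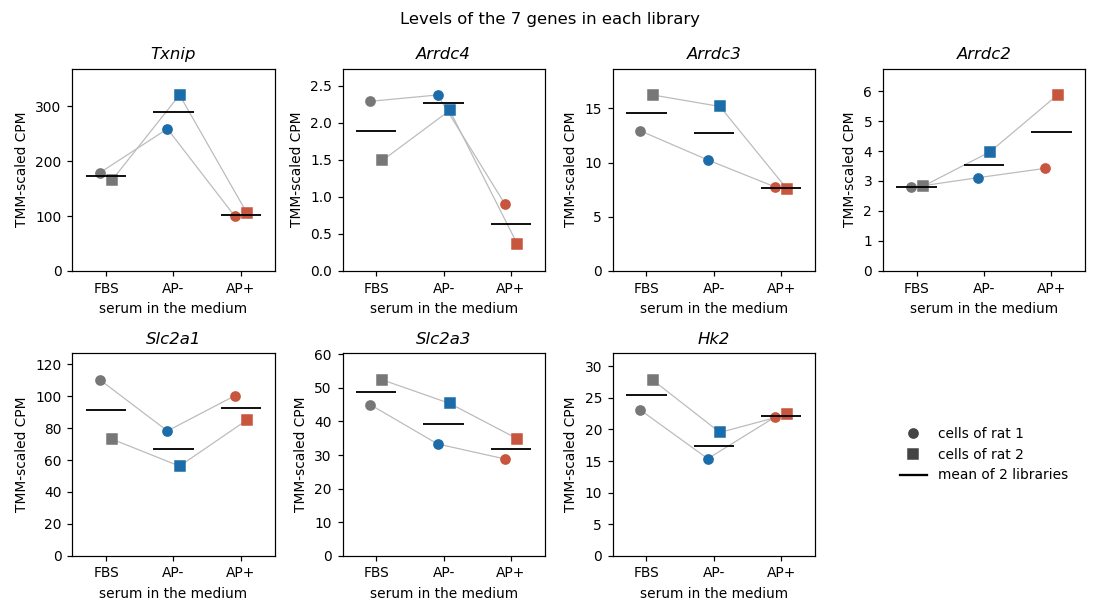
Level of each of the 7 genes in TMM-scaled CPM (linear axis from 0) by serum; circles are cells of rat 1, squares cells of rat 2, black lines group means of 2 libraries, grey lines join the cells of a rat. Txnip peaks with AP- at 259 and 321 CPM and is lowest with AP+ at 99.6 and 106 CPM, while Slc2a1 and Hk2 have their lowest group mean with AP-.

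Arrdc4 (NM_001047853, rn4 chr1:123522706-123531698, minus strand), the alpha-arrestin that shares with Txnip the control of glucose uptake, was scarce, with 2 to 14 reads a library. Its level was 2.29 and 1.49 CPM in FBS, 2.38 and 2.17 CPM with AP-, and 0.901 and 0.367 CPM with AP+ (rat 1 and rat 2 in turn). Both AP+ libraries lay below all 4 others, and FBS and AP- overlapped. Over both rats AP+ held 7 reads, AP- 25 and FBS 23, a ratio of 0.280 for AP+ to AP- (95% exact counting interval 0.102 to 0.666) and of 0.336 for AP+ to FBS (0.122 to 0.809). These intervals, like the floor of 3 reads, cover counting error only, since reads carried no molecular identifiers. They are a description and no test. AP+ against AP- is the contrast behind the choice of genes, and Arrdc4 passed the filter only through FBS and AP-, where it was high.

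The log2(CPM + 1) difference of Arrdc4 between AP+ and AP- was -1.02 (SE 0.29), a value that the pseudocount shrinks at such levels and that reached -1.83 under alternatives without it. Against FBS the difference with AP+ was -0.83 (SE 0.29, limma adjusted p = 0.125), where a block for the rat gave a limma adjusted p = 0.0409 and edgeR with the same block made no call. With AP- it was 0.19 (SE 0.29, limma adjusted p = 0.767), with a 95% interval of -0.51 to 0.89, and without FBS of rat 2 it was -0.0087. Arrdc4 entered the tested rows through FBS and AP- alone, the groups where it was high, so these p-values are no support for its difference with AP+.

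The start region of Arrdc4 is shown because the gene is a textbook MondoA target and, like Txnip, had lower values with AP+ than with AP- in both rats. The 250 bases before its start in RefSeq (GRCr8, chr1:131793426-131793675, minus strand) hold 1 E-box, CACGTG, set in capitals, whose first base lies 177 bases before the start.
Arrdc4: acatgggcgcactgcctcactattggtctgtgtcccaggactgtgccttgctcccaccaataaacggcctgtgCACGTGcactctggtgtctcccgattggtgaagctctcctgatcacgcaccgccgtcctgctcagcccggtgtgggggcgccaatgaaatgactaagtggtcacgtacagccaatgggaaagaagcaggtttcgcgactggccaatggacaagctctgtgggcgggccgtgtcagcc
CACGTG, which reads the same on both strands, was found in 5.59% of 33469 such windows, and in 1 of the 5 member windows that could be read (Arrdc4, Arrdc3, Arrdc2, Slc2a1 and Hk2). The 2 forms of a carbohydrate response element searched on both strands, CACGNG followed after 5 bases by CACGNG and CANGNG followed after 5 bases by CNCNTG, occurred in 0.0269% and 0.472% of windows and in none of the 5. A letter match describes the window and is no evidence of binding.

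Arrdc3 (NM_001007797, rn4 chr2_random:476775-486479, minus strand), an alpha-arrestin known for the traffic of beta-adrenergic receptors, was also lowest with AP+. It stood at 12.9 and 16.2 CPM in FBS, at 10.2 and 15.2 CPM with AP-, and at 7.75 and 7.52 CPM with AP+. The AP+ libraries lay below the other 4, and FBS and AP- overlapped. The difference of AP+ from AP- was -0.64 (SE 0.23) in log2(CPM + 1), larger in rat 2 (-0.92) than in rat 1 (-0.36). Against FBS it was -0.84 (SE 0.23, limma adjusted p = 0.0654) with AP+ and -0.20 (SE 0.23, limma adjusted p = 0.668) with AP-. With the rat as a block AP+ against FBS passed, with a limma adjusted p = 0.00386. Without AP- of rat 1 the difference of AP- from FBS turned to 0.06.

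Arrdc2 (NM_001107303, rn4 chr16:19108344-19112480, plus strand), a further alpha-arrestin, held 17 to 32 reads a library and did not share that pattern. Its level was 2.78 and 2.82 CPM in FBS, 3.11 and 3.98 CPM with AP-, and 3.42 and 5.87 CPM with AP+. The 2 FBS libraries were lowest, the rat sera overlapped, and the highest value was the AP+ library of rat 2. Differences in log2(CPM + 1) were 0.54 (SE 0.28, limma adjusted p = 0.262) for AP+ and 0.25 (SE 0.28, limma adjusted p = 0.663) for AP- against FBS. The difference between AP+ and AP-, 0.29 (SE 0.28), was -0.03 without AP+ of rat 2 and 0.60 without AP+ of rat 1.

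Slc2a1 (NM_138827, rn4 chr5:139690804-139719021, plus strand), which encodes the basal glucose transporter GLUT1, was lowest with AP-, the serum with the highest Txnip. In FBS it stood at 110 and 73.1 CPM, with AP- at 78.3 and 56.2 CPM, and with AP+ at 100.4 and 85.2 CPM. The cells of rat 1 lay above those of rat 2 in each serum, so FBS overlapped both other groups, whereas AP+ lay above AP-. Within each rat AP- was below FBS, by -0.49 and -0.37 in log2(CPM + 1), for a difference of -0.43 (SE 0.23, limma adjusted p = 0.342). The same difference had a limma adjusted p = 0.00800 with the rat as a block. AP+ was above AP- by 0.47 (SE 0.23), with 0.35 in rat 1 and 0.59 in rat 2. AP+ and FBS were apart by 0.04 (SE 0.23, limma adjusted p = 0.929), with a 95% interval of -0.51 to 0.59, and the sign turned to -0.0074 with library totals as the scale, to -0.25 without FBS of rat 2 and to -0.08 without AP+ of rat 1.

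The balance of Txnip and Slc2a1 reads within a library does not depend on scaling. Relative to FBS of the same rat, log2 of the Txnip to Slc2a1 ratio was higher by 1.03 and 1.33 with AP- in rat 1 and rat 2. With AP+ the ratio changed by -0.71 and -0.87. In log2(CPM + 1), Txnip itself differed from FBS by -0.84 and -0.65 with AP+, and Slc2a1 by -0.14 and 0.22. The change of the ratio with AP+ was thus mostly that of Txnip. As Txnip was chosen with its values known, the ratio is a description.

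Slc2a3 (NM_017102, rn4 chr4:159210116-159221169, minus strand), for the high-affinity transporter GLUT3, had its lowest group mean with AP+, as had Txnip and Arrdc3. It was at 45.0 and 52.4 CPM in FBS, at 33.3 and 45.4 CPM with AP-, and at 28.8 and 34.9 CPM with AP+. AP+ lay below FBS in both rats, and AP- overlapped each of the other groups. AP+ differed from FBS by -0.60 (SE 0.18, limma adjusted p = 0.0884, or 0.00147 with the rat as a block). AP- differed from FBS by -0.31 (SE 0.18, limma adjusted p = 0.384), and AP+ from AP- by -0.29 (SE 0.18).

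Hk2 (NM_012735, rn4 chr4:116925725-116975211, minus strand), the inducible hexokinase, followed Slc2a1 in being lowest with AP-. Its level was 23.1 and 27.9 CPM in FBS, 15.4 and 19.5 CPM with AP-, and 22.0 and 22.4 CPM with AP+. The AP- libraries lay below the other 4, and the 2 AP+ libraries lay just below those of FBS. The difference of AP- from FBS was -0.52 (SE 0.17, limma adjusted p = 0.142), with -0.56 and -0.49 in the 2 rats, and its limma adjusted p was 0.0201 with the rat as a block. AP+ differed from FBS by -0.19 (SE 0.17, limma adjusted p = 0.524) and from AP- by 0.34 (SE 0.17).

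Against FBS, limma called Txnip alone of the 7 genes at an adjusted p under 0.05. It was lower with AP+, where 9.61% of all rows were called, and higher with AP-, where 4.81% were. These calls share libraries with the contrast behind the choice of Txnip and are no independent support. A block for the rat in the fit called Txnip, Arrdc3 and Slc2a3 lower in AP+ against FBS, where 28.2% of all rows were called and 13.9% were called lower. Arrdc4 is left out of that count because the filter let it in only through groups where it was high. In AP- against FBS 3 of 7 were called with the block, Txnip higher and Slc2a1 and Hk2 lower, with 20.5% of all rows called. For AP+ against AP-, the contrast behind the choice of genes, the share of all rows called was 0.0204% without the block and 10.1% with it, and no call of a member is read from it. Once any 1 library was left out, limma called 0 rows in AP+ against AP-, with 918 to 1385 at an unadjusted p under 0.05.

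Groups did not overlap for 5 of 7 genes in AP+ against AP-, 6 of 7 in AP+ against FBS and 3 of 7 in AP- against FBS. Over all rows that share was 45.8%, 56.7% and 51.6%, so that separate groups of 2 libraries were common. The median log2 difference of the 7 was -0.29, -0.60 and -0.20 in the same order, beside -0.01, 0.00 and 0.01 over all rows. These counts and medians hold Arrdc4 and are descriptions.

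**Figure D2:**
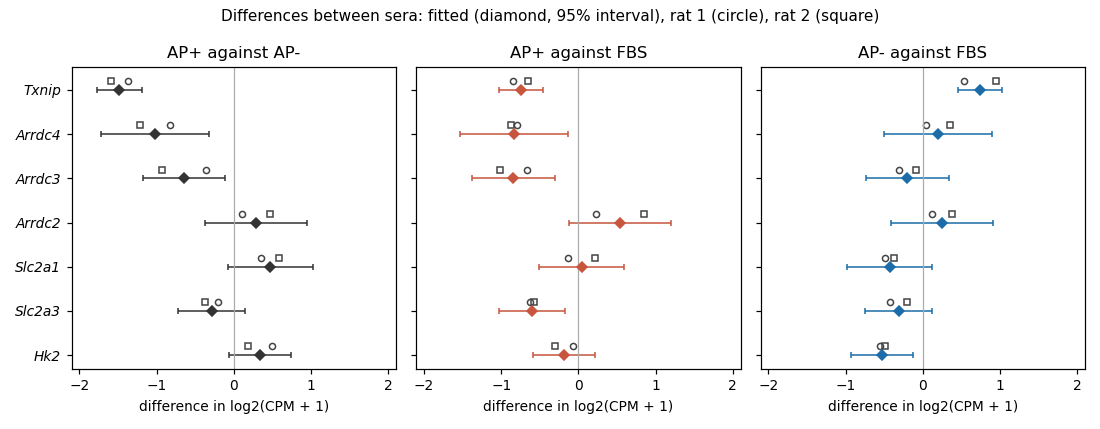
Differences of the 7 genes in log2(CPM + 1) for the 3 comparisons of sera; diamonds with bars are limma estimates with unadjusted 95% intervals, open circles and squares the difference within rat 1 and rat 2. Txnip lies at -1.48, -0.74 and 0.74. The bars come from the fit with serum as its only term, which leaves the pairing by rat out, and those of Slc2a1 span 0. For Slc2a1 the SE is 0.23 in that fit and 0.10 once a block for the rat is added. With that block its limma adjusted p is 0.00800 for AP- against FBS and 0.808 for AP+ against FBS. The comparisons share libraries. AP+ against AP- is the contrast behind the choice of genes, so its bars are a description and no test. The filter let Arrdc4 in only through FBS and AP-, so its bars are no support for its difference with AP+.

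Beyond the 7 genes, 8 lists of the surrounding pathway held 71 genes, 62 of them not members, of which 48 were expressed enough to be tested. In AP+ against FBS, 1 of the 48 rose and 1 fell by limma's adjusted p, in AP- against FBS 1 was called lower, and in AP+ against AP- limma called 0 of the 48, with 5 at an unadjusted p under 0.05 and 0 by edgeR. Their median log2 differences were 0.04, 0.03 and 0.01. With the rat as a block the calls were 11, 9 and 4 of the 48, in the same order. Over all rows the share called was 28.2%, 20.5% and 10.1% with the block. Without the block it was 9.61%, 4.81% and 0.0204%. Mxd3, which passed the filter only through FBS, is among the block calls against FBS. The counts are descriptions and were not tested as a set.

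Among the glucose transporters, 1 of 8 tested changed with AP+ against FBS, and with AP- limma and edgeR called 0, with 2 at an unadjusted p under 0.05. Slc2a9, which encodes the urate and hexose transporter GLUT9, rose with AP+ by 0.80 (SE 0.11, limma adjusted p = 0.0108), from 27.7 and 27.2 CPM in FBS to 46.8 and 49.9 CPM. With AP- it stood between them at 37.9 and 41.0 CPM, a difference from FBS of 0.51 (SE 0.11, limma adjusted p = 0.0557, or 0.00639 with the rat as a block). The Slc2a9 call was lost without either FBS library (limma adjusted p = 0.0592 and 0.0550) or either AP+ library (0.0707 and 0.0694). Its group means thus rose in the order FBS, AP-, AP+. The means of the member Arrdc2 and of Mlx, among others, had that order too, and those of Txnip, Slc2a1 and Slc2a3 did not. With the block Slc2a12 was also called lower with AP+ (limma adjusted p = 0.0361). Slc2a2, Slc2a4 and Slc2a5, with the insulin-regulated GLUT4 among them, were too low to be tested.

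In the network of Mondo, Mlx, Max and Myc proteins, which share E-box sites, limma called 1 of 9 tested genes, with AP- against FBS, and with the rat as a block 2 in each comparison with FBS. Mxd3, a repressor that pairs with Max, was the one called without the block, but it passed the filter only through FBS, where it was high. Its test and its counting interval are therefore no support for the difference. Its level went from 3.77 and 5.47 CPM in FBS to 0.549 and 0.181 CPM with AP-, or from 56 to 4 reads over both rats, a ratio of 0.0788 (95% exact counting interval 0.0208 to 0.213). Its log2(CPM + 1) difference was -2.04 (SE 0.39, limma adjusted p = 0.0355), and -1.36 (SE 0.39, limma adjusted p = 0.0763, or 0.00589 with the rat as a block) with AP+, where it held 3 and 11 reads. The call was lost without either FBS library (0.135 and 0.132), without either AP- library (0.126 and 0.178), with no filter on low values (0.0641) and with limma-voom (0.0574, all limma adjusted p). Mnt, a repressor of the same network and the gene of this list with the most reads, stood at 63.0 to 88.8 CPM and was not called. Myc, the growth regulator named after its values were seen, differed from FBS by -0.65 (SE 0.19) with AP-, a call only with the rat as a block among these 2 limma fits (adjusted p = 0.00317). Mlx, the partner of MondoA, was named after its values were seen: it stood at 64.3 and 68.5 CPM in FBS, 73.9 and 72.7 CPM with AP-, and 81.8 and 84.4 CPM with AP+. AP+ against FBS was 0.32 for Mlx (SE 0.09, limma adjusted p = 0.0816, or 0.0221 with the rat as a block), and its row overlaps another gene's.

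Among the ubiquitin ligases of the Nedd4 family, which alpha-arrestins recruit, 1 of 8 tested changed with AP+ against FBS. Smurf2, known for its action on the TGF-beta pathway, fell with AP+ from 145 and 143 CPM in FBS to 103 and 94.5 CPM, a difference of -0.54 (SE 0.09, limma adjusted p = 0.0181). With AP- it was at 126 and 128 CPM, a difference of -0.18 (SE 0.09, limma adjusted p = 0.320). The Smurf2 call was lost without either FBS library (limma adjusted p = 0.0933 and 0.0720) or either AP+ library (0.0746 and 0.0953). Nedd4 itself had the most reads of the list, at 1589 to 2072 CPM, and was not called. Itch, the ligase known to ubiquitinate Txnip and named after its values were seen, stood at 33.2 and 50.4 CPM in FBS, 47.6 and 53.7 CPM with AP-, and 58.7 and 50.7 CPM with AP+, and was not called. With the rat as a block, Wwp1 and Smurf1 were also called higher than in FBS, at limma adjusted p = 0.0431 and 0.00135 with AP+ and 0.0171 and 0.00260 with AP-.

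Of the thioredoxin genes, 4 were tested and limma called none in either comparison with FBS, with 2 at an unadjusted p under 0.05 for AP+ and 1 for AP-, and edgeR calling 0 and 1. Txn1, the thioredoxin that Txnip binds, named after its values were seen, stood at 127 and 120 CPM in FBS, 94.2 and 82.8 CPM with AP- and 92.6 and 96.9 CPM with AP+. Its difference from FBS was -0.48 (SE 0.10, limma adjusted p = 0.0503, or 0.00203 with the rat as a block) with AP- and -0.38 (SE 0.10, limma adjusted p = 0.0680, or 0.00742 with the block) with AP+. Txnrd1, the reductase with the most reads of this list, ranged from 140 to 247 CPM, and its row overlaps another gene's. Its difference from FBS with AP+ was 0.50 (SE 0.17, limma adjusted p = 0.115, or 0.000318 with the rat as a block).

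AMPK, the energy sensor that phosphorylates Txnip, and the enzymes that take glucose 6-phosphate onward showed no call against FBS by limma or by edgeR without the block. Each list had 1 gene at an unadjusted p under 0.05 in each comparison with FBS, of 8 and 12 tested. With the rat as a block limma called G6pc3 (adjusted p = 0.00864) and Pgm1 (0.0458) higher with AP+, and Prkag1 (0.0407), G6pc3 (0.0390) and Gfpt1 (0.0498) higher with AP-. Their genes with the most reads were Stk11, an AMPK kinase at 79.5 to 94.5 CPM whose row overlaps another gene's, and Gpi, which encodes glucose 6-phosphate isomerase, at 343 to 506 CPM.

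**Figure D3:**
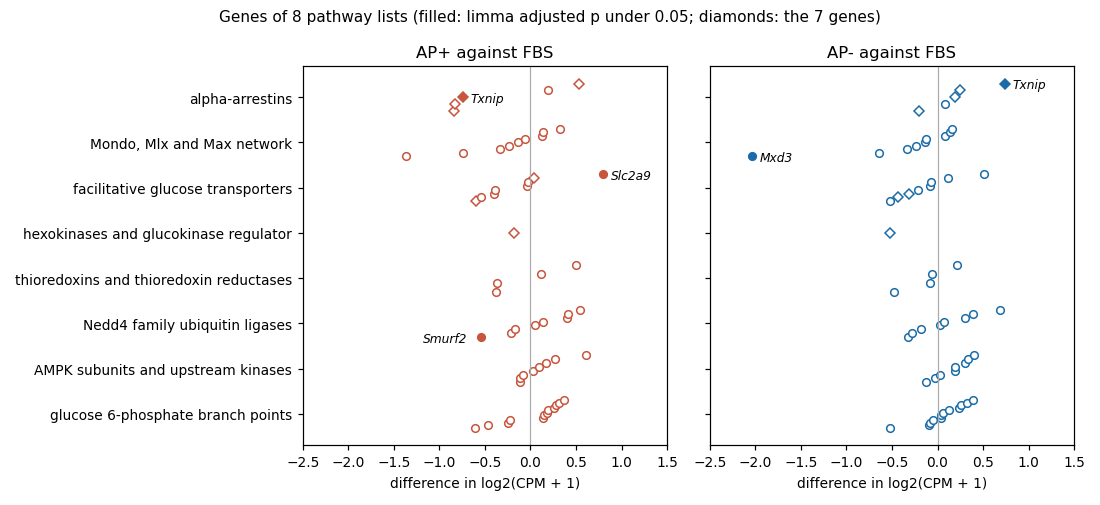
Differences from FBS in log2(CPM + 1) for the tested genes of the 8 pathway lists, 1 row of symbols a list, with AP+ on the left and AP- on the right. Filled symbols passed limma's adjusted p under 0.05 and diamonds are members; Txnip is filled on both sides, at -0.74 and 0.74, with Slc2a9 and Smurf2 on the left and Mxd3 on the right.

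The genes most like Txnip across the 6 libraries were looked for by Pearson's r of log2(CPM + 1) among 686 rows whose group means spanned at least 1. The points share rats and sera and fall into 3 pairs, so r is a description of likeness. The highest values were those of Ier2 (r = 0.99), Egr2 (0.93), Atg16l2 (0.91), Zfp192 (0.89) and Cplx2 (0.87), and Ier2 and Egr2 are immediate-early genes. Ier2 stood at 83.8 and 94.2 CPM in FBS, 123 and 141 CPM with AP- and 57.7 and 61.7 CPM with AP+, and thus had the order of sera of Txnip. Egr2, for a zinc finger transcription factor, was at 14.4 and 17.9 CPM in FBS, 37.3 and 32.4 CPM with AP- and 11.5 and 8.26 CPM with AP+.

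The lowest values of r were those of Tubb3 (-0.96), Opn3 (-0.96), Gstt3 (-0.94), Tpbg (-0.94) and Thbs2 (-0.93). Tubb3, a beta-tubulin, ran against Txnip at 44.5 and 32.8 CPM in FBS, 20.1 and 15.7 CPM with AP- and 58.7 and 59.8 CPM with AP+. Thbs2, for the matrix protein thrombospondin 2, had 1716 and 1172 CPM in FBS, 1037 and 764 CPM with AP- and 2094 and 1947 CPM with AP+. After each rat's mean was taken out, 3 of the 5 most alike and 4 of the 5 most opposite kept their places. Of the members, Arrdc4 had the r nearest to 1 with Txnip, 0.85, and Slc2a1 the lowest, -0.65.

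**Figure D4:**
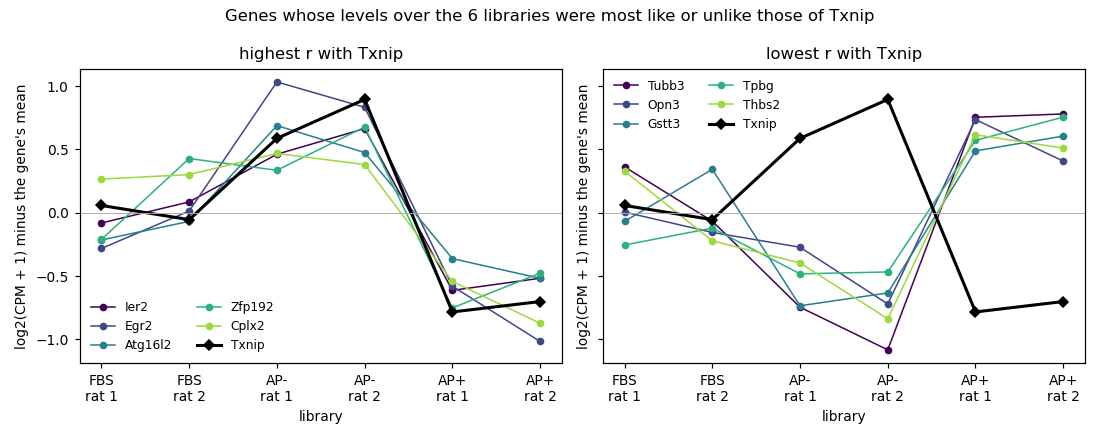
log2(CPM + 1) minus each gene's own mean over the 6 libraries, for Txnip (black) and the 5 genes with the highest r (left) or the lowest r (right) with it, chosen for this likeness. Txnip rises to its highest points in the AP- libraries and falls to its lowest in AP+, and Tubb3 takes the opposite course.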

How the data were processed

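Sequencing reads of poly(A)-selected RNA were mapped by the authors with Bowtie2 2.1.0 to the rat genome rn4 and counted per transcript with HTSeq 0.5.4p3; strand is not stated in the sources used here. The deposited values are a CPM signal that the authors scaled with TMM, and they gave whole reads for 100% of values within 1e-06. Whole reads served the count tests among the alternatives. Gene positions are those of the deposited rows.

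Rows with 1 CPM or more in both libraries of at least 1 group were kept (9820 of 17221). limma 3.58.1 (R 4.3.3, trended eBayes, two-sided) was fitted to log2(CPM + 1) of all 6 libraries with serum as the only term, and p-values were adjusted after Benjamini-Hochberg over all rows. The fit was tested on simulated data with the same dispersion for all genes, no effect of the rat and changes only in more abundant genes. That test therefore does not cover the pairing by rat or scarce genes such as Arrdc4. The study's own test was limma-voom. edgeR 4.0.16 on the recovered reads called 3 rows in AP+ against AP-, 942 in AP+ against FBS and 471 in AP- against FBS. Other alternatives were a block for the rat, a pseudocount of 0.1, no filter, other scalings, DESeq2 1.42.0 and leaving out each library.

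Replicate numbers pair the samples, since per the labels the same 2 rats gave the cells for each serum; differences between the rats correlated across rows with r = 0.616 (FBS, AP-), 0.494 (FBS, AP+) and 0.590 (AP-, AP+). Whether serum lots were independent is not stated, so p-values measure the spread between cultures of 2 rats.

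Members and pathway lists were chosen with earlier results of these data known. Named beside the members by rule were list genes with a limma adjusted p under 0.05 against FBS without the block and the most abundant tested gene of each list. So were the 5 genes with the highest and the 5 with the lowest r with Txnip. Outside these rules, Myc, Mlx, Itch and Txn1 were named after their values were seen. Slc2a12, Wwp1, Smurf1, G6pc3, Pgm1, Prkag1 and Gfpt1 were named for calls with the rat as a block. Promoter windows came from RefSeq (GRCr8), and 5 of the 7 genes found had one.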

Additional observations from a re-analysis of the deposited data

How the results depend on the processing

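Over 15 alternatives, 309 of 315 differences of the 7 genes kept their direction. The other 6 turned, and none of them had been called. Part of the 315 could not turn. In limma the block for the rat and the missing filter leave each difference unchanged by design. So does leaving out a library of the group outside the comparison. Slc2a1 in AP+ against FBS was -0.0074 with library totals and -0.25 to 0.33 with a library left out, negative without FBS replicate 2 (-0.25) and AP+ replicate 1 (-0.08). With a library left out, Arrdc2 in AP+ against AP- was -0.032 to 0.60 (lowest without AP+ replicate 2), Arrdc4 in AP- against FBS -0.0087 to 0.39 (lowest without FBS replicate 2) and Arrdc3 in AP- against FBS -0.46 to 0.062 (highest without AP- replicate 1). The causes were not tested.

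Counts of called rows moved most with the rat as a replicate block. In AP+ against AP- they were 2 without the block, 987 with it, 995 with edgeR and the block, 123 with DESeq2, 0 with no filter on low values (1617 at an unadjusted p under 0.05) and 0 by limma when any library was left out (918 to 1385 unadjusted). In AP+ against FBS they were 944, 2773 with the block, 2851 with edgeR and the block, 586 with no filter and 25 to 602 with a library left out. In AP- against FBS they were 472, 2011 with the block, 2066 with edgeR and the block, 255 with no filter and 105 to 280 with a library left out. For genes of the 8 pathway lists, AP+ against AP- gave 1, 8 with the block, 9 with edgeR and the block, 0 with no filter (8 unadjusted) and 0 with any library left out (4 to 9 unadjusted). AP+ against FBS gave 3, 15 with the block, 17 with edgeR and the block, and 0 to 3 with a library left out. AP- against FBS gave 2, 12 with the block, 14 with edgeR and the block, 1 with no filter, 1 with limma-voom and 0 to 1 with a library left out. With a library left out, the lone sample of its group is assumed to vary like the others. The pathway list counts are of 55 tested genes and include the members. In AP+ against AP-, the contrast behind the choice of genes, the 1 call was Txnip. The 8 with the block there included Txnip, Arrdc3, Arrdc4 and Slc2a1, so neither count is support. The 15 in AP+ against FBS include Arrdc4 and Mxd3, which passed the filter only through groups where they were high. The 12 in AP- against FBS include Mxd3. Over all rows the block called 10.1%, 28.2% and 20.5%. Other rows for a gene could not be tried, as each symbol had 1 row.

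At 2 to 14 reads Arrdc4 is limited by counting, and with 2 libraries a group a p that misses the threshold shows no equality.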
